A study of Homo sapiens with 12 samples.

Results

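The genes described here are 43 genes of the human type I interferon response, and the question put to them was how they differ between a melanoma line, its counterpart that resists BRAF inhibitors, and each line's cultures with and without dabrafenib. They were taken by symbol from a set list of interferon-stimulated genes. No measured value entered the rule, but the list was chosen with earlier results of these data known. All 43 were found among the 33694 human genes in the count files. Of these, 35 passed the filter on low counts and were tested, as were 10236 genes in all. A375 is an established human melanoma line that carries an activating mutation of BRAF, and A375-BIR is, per the labels, its form resistant to BRAF inhibitors. How the resistance was obtained is not given in the sources used here, and each line is a single line, so a difference between them is a difference between these lines. The groups were A375-BIR with the BRAF kinase inhibitor dabrafenib at 200 nM for 48 h, A375-BIR with the solvent DMSO at 0.1%, A375 with dabrafenib at 200 nM for 48 h, and A375 with DMSO at 0.1%. All were grown in RPMI medium with 10% serum.

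Type I interferons are secreted proteins that bind a receptor of the chains IFNAR1 and IFNAR2. The kinases JAK1 and TYK2 on this receptor phosphorylate STAT proteins, among them STAT2, which joins IRF9 in a complex called ISGF3 that enters the nucleus. There the complex binds a DNA element, the interferon-stimulated response element (ISRE), in front of the responding genes, most of whose products act against viral RNA, viral entry or viral budding. Some tumour cells hold many of these genes at a steady level without infection.

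The ISRE was searched as GAAA, any 2 bases and GAAA again on both strands, so that TTTC, any 2 bases and TTTC on the printed strand is the same element, in the 250 bases before each RefSeq gene start (GRCh38.p14). It was found in 1061 of 35116 promoters (3.02%). RefSeq start sites were matched by symbol for 33 of the 43 genes, and 25 of their 46 promoters (54.3%) held the letters, which belonged to 21 genes. The genes with no entry were IRF7, DHX58, USP18, IFIT2, OAS2, OASL, MX2, IFITM2, LY6E and TRIM22. Below are 80 bases from the promoters of 6 genes, chosen because among the genes that hold the element they had the smallest p between the lines under dabrafenib. Capitals mark the element, on either strand.
ISG15 (chr1:1013355-1013434, + strand): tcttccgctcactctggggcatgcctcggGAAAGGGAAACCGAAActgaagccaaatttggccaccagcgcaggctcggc
IFI27 (chr14:94110606-94110685, + strand): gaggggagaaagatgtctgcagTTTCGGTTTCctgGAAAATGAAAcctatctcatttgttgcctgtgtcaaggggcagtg
IFIT3 (chr10:89327840-89327919, + strand): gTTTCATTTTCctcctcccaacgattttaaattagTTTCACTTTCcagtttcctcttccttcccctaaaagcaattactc
IFI44L (chr1:78620340-78620419, + strand): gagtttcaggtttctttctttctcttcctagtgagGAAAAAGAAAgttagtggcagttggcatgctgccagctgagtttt
RSAD2 (chr2:6877597-6877676, + strand): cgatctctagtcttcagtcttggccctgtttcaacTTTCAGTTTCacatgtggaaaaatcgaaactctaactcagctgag
HERC5 (chr4:88457010-88457089, + strand): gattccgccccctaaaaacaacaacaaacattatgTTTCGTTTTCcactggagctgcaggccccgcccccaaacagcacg
In the ISG15 promoter a pair of matches overlap, so that a single run of capitals holds both. In IFI27 and in IFIT3 a pair of separate matches lie in the stretch shown. The letters of a second element, GAS (TTCNNNGAA), to which dimers of STAT proteins bind, were searched in the same way and were found in 6.57% of all promoters and in those of 10 of the 33 genes. GAS and ISRE letters can share bases and were counted separately. A match is a string of letters and does not show that a factor was bound.

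RNA was counted from 3′ tag libraries, which give a read per transcript near its polyadenylated end. The deposited values are raw read counts per gene. The gene counts per library were 391210 to 971347 in A375-BIR with dabrafenib, 579288 to 1100917 in A375-BIR with DMSO, 198690 to 493398 in A375 with dabrafenib, and 1999840 in the single A375 DMSO library that lists human genes. The other 2 files labelled A375 DMSO list mouse gene identifiers and entered no comparison. The A375 DMSO library also carries another stamp, in the name of its deposited counts, than the 9 libraries of the other groups, whose stamps begin alike. Each stamp is taken here to mark a run, which the sample titles do not name. Wherever the A375 DMSO library is used, group and run cannot be told apart, and this library is assumed to vary like the other groups. Levels are CPM, the counts scaled to a common library total after TMM scaling, and replicate values are given in the order of the replicate numbers, which mark no pairs. Differences are on the log2 scale, on which 1 is a 2-fold difference, with an approximate standard error, and come from edgeR's quasi-likelihood test. Calls are at an adjusted p under 0.05 (Benjamini-Hochberg, over the 10236 genes). Where a group had no count of a gene, the fold is a lower limit set against 3 counts over that group, which is 2.70 CPM in A375 with dabrafenib, and where it had 1 to 3 counts the ratio of summed counts stands with its exact 95% interval. Limits and intervals cover counting error only, and p-values measure the spread between these libraries.

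Melanocyte lineage markers, 7 in all, were detected in both lines but at different levels. Their summed level was 215 to 313 CPM in A375-BIR with dabrafenib, 196 to 212 CPM in A375-BIR with DMSO, 2843 to 3374 CPM in A375 with dabrafenib, and 1442 CPM in A375 with DMSO. MLANA and TYR had no count in A375-BIR, and MLANA had none in A375 with DMSO. The 6 leukocyte markers had at most 3 counts in any group, and 3 plasmacytoid dendritic cell markers had none. Mitochondrially encoded genes took 4.88% to 7.21% of gene counts in A375-BIR with dabrafenib, 4.63% to 5.49% in A375-BIR with DMSO, 10.7% to 15.1% in A375 with dabrafenib and 15.1% in A375 with DMSO. The lineage markers and the mitochondrial share thus move with the line, as do many of the genes below, and their part in the result was not tested. In RNA from whole cultures, fewer expressing cells and less RNA per cell cannot be told apart.

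The 43 genes together took a larger share of the transcripts in A375-BIR than in A375. They held 0.481%, 0.356% and 0.285% of gene counts in A375-BIR with dabrafenib and 0.378%, 0.332% and 0.384% in A375-BIR with DMSO. In A375 they held 0.120%, 0.123% and 0.116% with dabrafenib and 0.148% with DMSO (exact 95% interval 0.143% to 0.154%). The lowest A375-BIR library, dabrafenib replicate 3, had an exact 95% interval of 0.269% to 0.302%, which lies above the upper end of 0.154% of the A375 DMSO library. With IFITM3 left out, the A375 shares were 0.0928%, 0.101% and 0.0991% with dabrafenib and 0.0922% with DMSO. The A375-BIR libraries then held 0.244% to 0.395%. Within A375-BIR the dabrafenib libraries lie on both sides of the DMSO libraries, with replicate 1 the highest of the 6 and replicate 3 the lowest. Replicate 3 also stood apart in other measures: 20.4% of its reads were on genes, against 27.7% to 31.1% in the other 5 A375-BIR libraries, and the nuclear RNA MALAT1 took 5.78% of its gene counts, against 2.36% to 3.94%. In A375 with dabrafenib 21.1% to 24.3% of reads were on genes and MALAT1 took 5.08% to 8.60% of gene counts, and in A375 with DMSO the values were 27.1% and 2.60%. The part of these measures in the result was not tested.

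**Figure D1:**
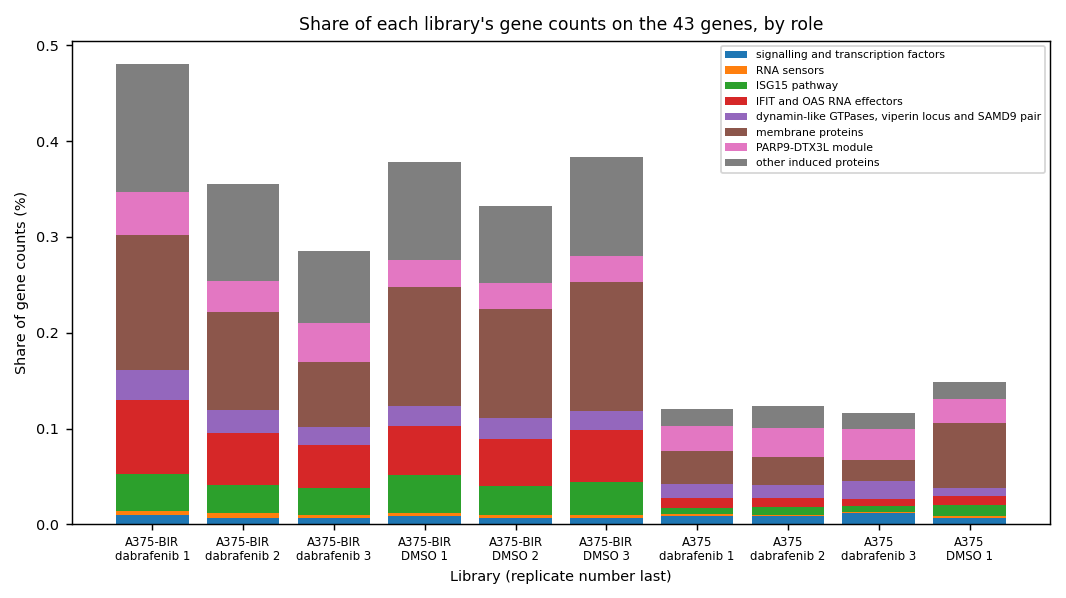
Share of each library's gene counts on the 43 genes (percent, vertical axis), stacked by role, for the 10 human libraries (horizontal axis). The 6 A375-BIR libraries lie between 0.285% and 0.481% and the 4 A375 libraries between 0.116% and 0.148%, with the membrane proteins and the other induced proteins the widest bands in A375-BIR.

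**Figure D2:**
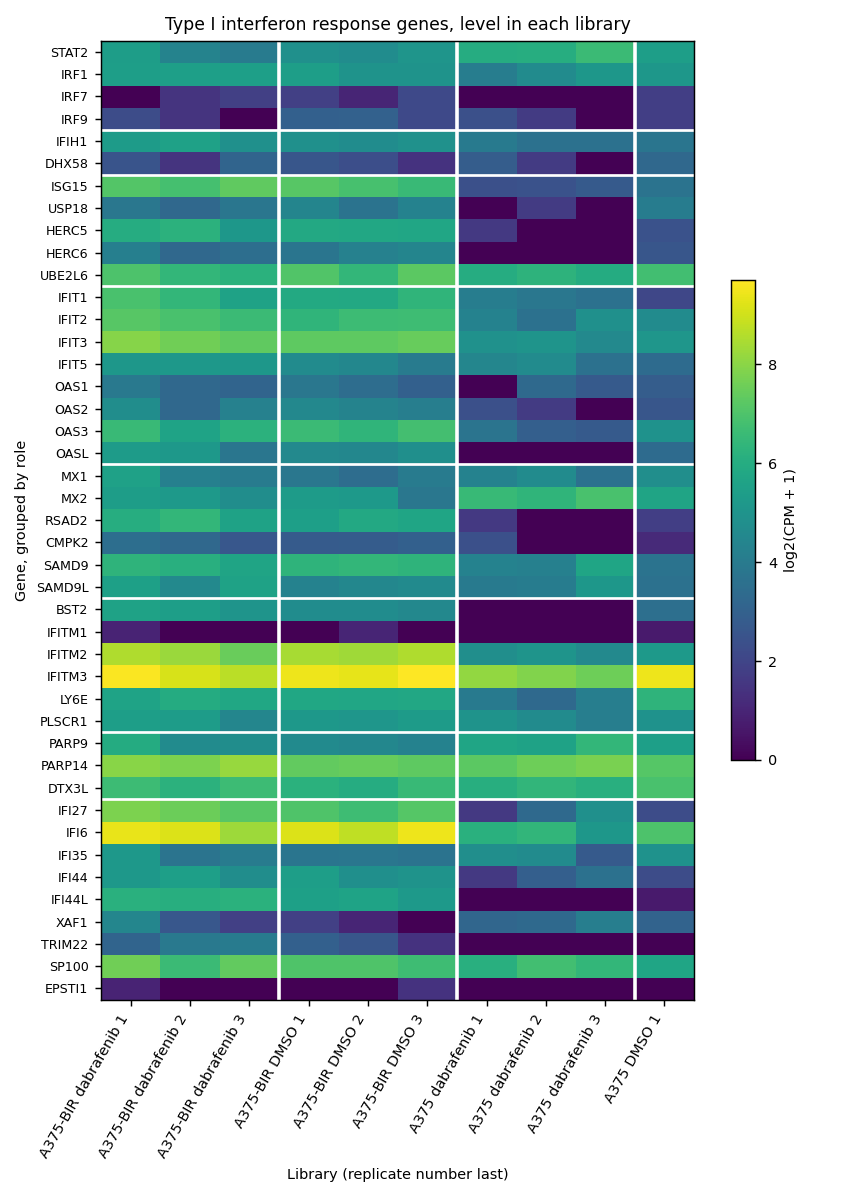
Level of each of the 43 genes (rows, grouped by role) in each of the 10 libraries (columns, grouped by line and treatment), as log2(CPM + 1). Rows such as ISG15, HERC5, RSAD2, IFI27 and IFI44L are bright in the A375-BIR columns and dark in the A375 columns, while MX2 and STAT2 are brighter in A375 with dabrafenib.

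The comparison of the lines under the same drug, all within a run and with 3 libraries on each side, gave the largest median difference of the comparisons made. Of the 35 tested genes, 25 were higher in A375-BIR with dabrafenib than in A375 with dabrafenib, 2 were lower and 8 were not called, where 42.7% of all tested genes were called, 22.6% higher and 20.2% lower. Of all tested genes, 25.5% had all 3 A375-BIR libraries above all 3 A375 libraries, and of the tested interferon response genes 23 did. The median difference was 2.08 over the 35 genes and 0.043 over all genes tested. With DMSO, 20 of the 35 were higher in A375-BIR and 5 lower (of all tested genes 51.8% were called, 25.1% higher and 26.7% lower), with a median of 1.19 against 0.0052 over all genes. The filter bears on these counts. Run on a single line, it asked for 3 libraries at its cut-off in A375-BIR but for 1 in A375, whose smallest group is 1 library. Of the 35 genes, 12 passed it on the A375-BIR libraries alone but not on the A375 libraries alone, and 0 the other way round. Over all genes these numbers were 1319 and 910. Low genes of A375 on the list could thus enter only as higher in A375-BIR. The 12 genes are part of the counts and medians above, which are therefore not like for like with those over all genes.

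**Figure D3:**
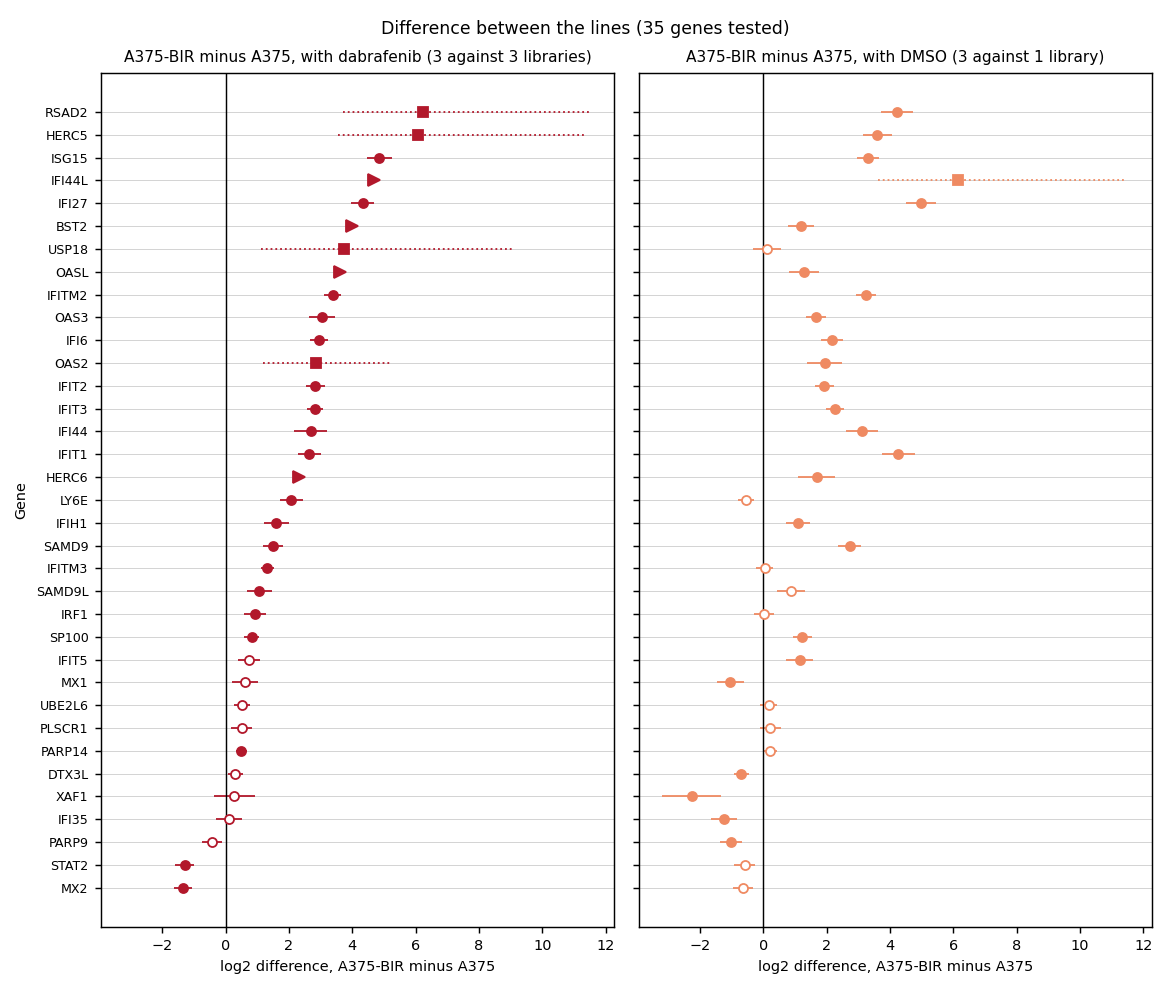
Difference between the lines for the 35 tested genes (rows), A375-BIR minus A375 on the log2 scale, with dabrafenib on the left (3 against 3 libraries) and with DMSO on the right (3 against 1). Circles are fitted values with standard errors, triangles lower limits where A375 had no count, squares ratios of counts with 95% intervals (dotted) where A375 had 1 to 3, and filled symbols are called genes; on the left 25 called genes lie right of 0, and MX2 and STAT2 left of it.

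Of the 5 genes of the ISG15 pathway, 4 were called higher in A375-BIR under dabrafenib and 3 with DMSO. Of all tested genes, 22.6% and 25.1% were called higher. HERC5 and HERC6 had few counts in A375, so the limit set by the filter holds for them. ISG15 (chromosome 1, 1001138 to 1014540, GENCODE 29, GRCh38), a ubiquitin-like protein that is attached to other proteins and also secreted, stood at 137, 112 and 160.4 CPM with dabrafenib and at 145, 117 and 93.1 CPM with DMSO in A375-BIR. It stood at 4.12, 4.46 and 5.64 CPM with dabrafenib and at 11.9 CPM with DMSO in A375. All 6 A375-BIR libraries lay above all 4 A375 libraries. The log2 difference was 4.86 ± 0.40, adjusted p = 1.55e-12 with dabrafenib and 3.32 ± 0.35, adjusted p = 6.17e-10 with DMSO. HERC5 (chromosome 4, 88457117 to 88506163), the main human ligase that attaches ISG15, stood at 62.8, 73.5 and 33.6 CPM with dabrafenib and at 56.8, 55.4 and 52.5 CPM with DMSO in A375-BIR. It stood at 2.06, 0 and 0 CPM with dabrafenib and at 4.40 CPM with DMSO in A375, which is a single count over the 3 dabrafenib libraries. The ratio of counts between the lines with dabrafenib was 66.9 (95% counting interval 11.8 to 2664), called at adjusted p = 3.14e-09, and with DMSO the log2 difference was 3.60 ± 0.46, adjusted p = 5.05e-08. Its neighbour HERC6 (chromosome 4, 88378739 to 88443111), a related ligase, stood at 17.1, 8.75 and 10.4 CPM with dabrafenib and at 12.7, 18.1 and 20.3 CPM with DMSO in A375-BIR. In A375 it had no count with dabrafenib and 5.02 CPM with DMSO, and it was at least 4.98-fold higher in A375-BIR under dabrafenib (adjusted p = 0.000438). With DMSO its difference of 1.68 ± 0.59, adjusted p = 0.0167 was no longer called without A375-BIR DMSO replicate 2 or with DESeq2.

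USP18 (chromosome 22, 18149899 to 18177397), the protease that removes ISG15 and also restrains the interferon receptor, was called between the lines with dabrafenib but not with DMSO. It stood at 13.3, 8.75 and 12.9 CPM with dabrafenib and at 20.3, 12.1 and 18.6 CPM with DMSO in A375-BIR, and at 0, 2.23 and 0 CPM with dabrafenib and at 15.7 CPM with DMSO in A375. With DMSO the lone A375 library lay within the range of A375-BIR, and the difference of 0.11 ± 0.44, adjusted p = 0.849 was not called. With dabrafenib A375 had a single count, the ratio was 13.3 (95% counting interval 2.16 to 546), and the difference was called (adjusted p = 0.00302). UBE2L6, the enzyme that carries ISG15 to its ligase, was not called in either comparison. Its A375 DMSO library, at 108 CPM, also lay within the range of A375-BIR with DMSO.

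The IFIT proteins bind foreign RNA, and the OAS enzymes make a small messenger that switches on the decay of RNA. All 7 tested genes of these families were higher in A375-BIR with DMSO and 6 of them with dabrafenib, IFIT5 being the one not called. Of all tested genes, 25.1% were called higher with DMSO and 22.6% with dabrafenib. IFIT3 (chromosome 10, 89327894 to 89340971), whose protein stabilises IFIT1, stood at 241, 194 and 158 CPM with dabrafenib and at 155, 156 and 173 CPM with DMSO in A375-BIR. It stood at 28.9, 31.2 and 22.6 CPM with dabrafenib and at 33.3 CPM with DMSO in A375. Its lowest A375-BIR library thus lay well above its highest A375 library, with log2 differences of 2.81 ± 0.25, adjusted p = 1.44e-11 with dabrafenib and 2.27 ± 0.28, adjusted p = 2.50e-08 with DMSO. IFIT2 (chromosome 10, 89283694 to 89309276) stood at 145, 121 and 95.8 CPM with dabrafenib and at 81.3, 99.8 and 103 CPM with DMSO in A375-BIR, and at 18.6, 11.2 and 28.2 CPM with dabrafenib and at 24.5 CPM with DMSO in A375. Again no A375 library reached the range of A375-BIR, and the differences were 2.83 ± 0.31, adjusted p = 1.55e-09 with dabrafenib and 1.93 ± 0.31, adjusted p = 3.07e-06 with DMSO.

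IFIT1 (chromosome 10, 89392546 to 89406486), which binds RNA whose cap lacks a methyl mark of host messages, stood at 121, 85.7 and 46.6 CPM with dabrafenib and at 57.6, 57.5 and 79.6 CPM with DMSO in A375-BIR. It stood at 16.5, 13.4 and 11.3 CPM with dabrafenib and at 3.14 CPM with DMSO in A375. Here the A375 dabrafenib libraries lay between the DMSO library of their own line and A375-BIR. The difference between the lines was 2.64 ± 0.37, adjusted p = 3.38e-07 with dabrafenib and 4.26 ± 0.53, adjusted p = 2.56e-08 with DMSO. OAS3 (chromosome 12, 112938352 to 112973249), the OAS enzyme for long double-stranded RNA, stood at 94.2, 49.0 and 75.0 CPM with dabrafenib and at 97.4, 79.6 and 112 CPM with DMSO in A375-BIR, and at 12.4, 6.70 and 5.64 CPM with dabrafenib and at 30.1 CPM with DMSO in A375. Its A375 dabrafenib libraries were the lowest of all 10, and the differences were 3.04 ± 0.40, adjusted p = 8.12e-08 with dabrafenib and 1.65 ± 0.31, adjusted p = 3.73e-05 with DMSO. OASL, an OAS relative that has lost the enzyme activity and aids RNA sensing, stood at 39.0, 35 and 12.9 CPM with dabrafenib and at 22.9, 21.2 and 27.1 CPM with DMSO in A375-BIR. In A375 it had no count with dabrafenib and 9.42 CPM with DMSO. It was at least 12.2-fold higher in A375-BIR under dabrafenib (adjusted p = 8.50e-07). With DMSO its difference was 1.29 ± 0.46, adjusted p = 0.0192, and the call was lost with DESeq2.

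RSAD2 (chromosome 2, 6865806 to 6898239), which encodes viperin, an enzyme that makes a chain-terminating nucleotide, stood at 65.7, 84.0 and 46.6 CPM with dabrafenib and at 43.2, 56.4 and 50.8 CPM with DMSO in A375-BIR. It stood at 2.06, 0 and 0 CPM with dabrafenib and at 2.51 CPM with DMSO in A375. That is a single count over the 3 A375 dabrafenib libraries, against 135 counts in A375-BIR with dabrafenib, a ratio of 74.6 (95% counting interval 13.2 to 2969). The call held at adjusted p = 6.81e-10, and with DMSO the log2 difference was 4.22 ± 0.52, adjusted p = 1.92e-08. CMPK2, a nucleotide kinase gene next to RSAD2, was not tested, with 18 counts in A375-BIR with dabrafenib, 17 in A375-BIR with DMSO and 2 in each A375 group. SAMD9 (chromosome 7, 93099513 to 93118023), which restrains cell growth and poxvirus replication, stood at 78.1, 68.2 and 49.2 CPM with dabrafenib and at 78.0, 83.7 and 77.9 CPM with DMSO in A375-BIR. It stood at 18.6, 17.9 and 50.8 CPM with dabrafenib and at 11.9 CPM with DMSO in A375, where A375 dabrafenib replicate 3 reached the lower end of A375-BIR. The differences were 1.5 ± 0.32, adjusted p = 0.000248 with dabrafenib and 2.73 ± 0.37, adjusted p = 1.30e-07 with DMSO. Its neighbour and relative SAMD9L (chromosome 7, 93130055 to 93148369) stood at 44.7, 22.7 and 46.6 CPM with dabrafenib and at 18.6, 21.2 and 23.7 CPM with DMSO in A375-BIR, and at 14.4, 15.6 and 33.8 CPM with dabrafenib and at 11.3 CPM with DMSO in A375. The groups overlap, and the difference of 1.07 ± 0.38, adjusted p = 0.0226 with dabrafenib lost its call with DESeq2 and without A375-BIR dabrafenib replicate 1 or A375 dabrafenib replicate 1 or 2.

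MX2 and STAT2 went the other way. MX2 (chromosome 21, 41361943 to 41409390), a dynamin-like GTPase that blocks viral entry to the nucleus, stood at 40.9, 36.7 and 25.9 CPM with dabrafenib and at 39.0, 36.3 and 13.5 CPM with DMSO in A375-BIR. It stood at 92.8, 80.3 and 118 CPM with dabrafenib and at 49.6 CPM with DMSO in A375. All 3 A375 dabrafenib libraries lay above every other library, and the log2 difference between the lines under dabrafenib was -1.36 ± 0.28, adjusted p = 0.000161. STAT2 (chromosome 12, 56341597 to 56360155), the ISGF3 subunit particular to type I and type III interferon signalling, stood at 40.9, 19.2 and 15.5 CPM with dabrafenib and at 28.0, 25.2 and 32.2 CPM with DMSO in A375-BIR, and at 63.9, 64.7 and 95.9 CPM with dabrafenib and at 42.1 CPM with DMSO in A375. Under dabrafenib every A375 library exceeded every A375-BIR library, with a difference of -1.29 ± 0.30, adjusted p = 0.000684. With DMSO neither gene was called (-0.64 ± 0.32, adjusted p = 0.0914 for MX2 and -0.58 ± 0.33, adjusted p = 0.135 for STAT2). MX1, next to MX2 on chromosome 21, was lower in A375-BIR with DMSO (-1.04 ± 0.42, adjusted p = 0.0372) but not with dabrafenib (0.62 ± 0.41, adjusted p = 0.232). The DMSO call for MX1 ended with DESeq2, with the replicate number as a block, and without A375-BIR DMSO replicate 1 or 2.

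Of the other factors of the pathway, IRF1 (chromosome 5, 132481609 to 132490798), a transcription factor shared with the interferon gamma response, stood at 42.8, 43.7 and 44.0 CPM with dabrafenib and at 42.4, 30.2 and 30.5 CPM with DMSO in A375-BIR. It stood at 16.5, 24.5 and 33.8 CPM with dabrafenib and at 34.5 CPM with DMSO in A375. All 3 A375-BIR dabrafenib libraries were above those of A375 with dabrafenib, and the difference of 0.93 ± 0.33, adjusted p = 0.0232 lost its call with DESeq2 and without A375 dabrafenib replicate 1 or 2. An antisense gene shares 22% of the exon bases of IRF1, and the strand setting of the counting is not given in the sources used here. IRF9, the DNA-binding subunit of ISGF3, was too low to test, with 5 counts in A375-BIR with dabrafenib, 17 in A375-BIR with DMSO, 3 in A375 with dabrafenib and 4 in A375 with DMSO. IRF7, which drives further interferon production, had 2 counts in A375-BIR with dabrafenib, 6 in A375-BIR with DMSO, 0 in A375 with dabrafenib and 4 in A375 with DMSO. The RNA sensor IFIH1 (chromosome 2, 162267079 to 162318703), also called MDA5, stood at 39.0, 45.5 and 28.5 CPM with dabrafenib and at 28.0, 25.2 and 28.8 CPM with DMSO in A375-BIR, and at 14.4, 11.2 and 11.3 CPM with dabrafenib and at 12.6 CPM with DMSO in A375. No A375 library reached A375-BIR, with differences of 1.60 ± 0.38, adjusted p = 0.000846 with dabrafenib and 1.10 ± 0.38, adjusted p = 0.0150 with DMSO, of which the second lost its call with DESeq2. DHX58, a relative that lacks a signalling domain, was not tested, with 9 counts in A375-BIR with dabrafenib, 11 in A375-BIR with DMSO, 4 in A375 with dabrafenib and 14 in A375 with DMSO.

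Among genes for membrane proteins, IFITM2 (chromosome 11, 307631 to 315272), which hinders the fusion of viral and cell membranes, stood at 374, 297 and 176 CPM with dabrafenib and at 343, 319 and 374 CPM with DMSO in A375-BIR. It stood at 26.8, 31.2 and 22.6 CPM with dabrafenib and at 36.4 CPM with DMSO in A375. The lowest A375-BIR library was well above the highest A375 library, and the differences were 3.38 ± 0.28, adjusted p = 2.05e-12 with dabrafenib and 3.24 ± 0.32, adjusted p = 1.95e-10 with DMSO. IFITM2 shares 22.7% of its exon bases with IFITM1, and the family's sequences are near copies, so that reads could be divided between them; IFITM1 had 1 count in A375-BIR with dabrafenib, 1 in A375-BIR with DMSO, 0 in A375 with dabrafenib and 1 in A375 with DMSO. IFITM3 (chromosome 11, 319669 to 327537), which acts at endosomes, stood at 795, 555 and 411 CPM with dabrafenib and at 699.9, 647 and 829 CPM with DMSO in A375-BIR, and at 278, 234 and 186 CPM with dabrafenib and at 703 CPM with DMSO in A375. With DMSO the A375 library lay inside the range of A375-BIR, whereas with dabrafenib all 3 A375 libraries lay below, with a difference between the lines of 1.31 ± 0.21, adjusted p = 3.51e-06. An antisense gene shares 21.3% of the exon bases of IFITM3.

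BST2 (chromosome 19, 17402939 to 17405648), or tetherin, which holds budding virus particles at the cell surface, stood at 47.6, 42.0 and 31.1 CPM with dabrafenib and at 25.4, 25.2 and 22 CPM with DMSO in A375-BIR. In A375 it had no count in any of the 3 dabrafenib libraries and 10.7 CPM with DMSO. It was at least 15.8-fold higher in A375-BIR under dabrafenib (adjusted p = 1.80e-08), and its difference of 1.19 ± 0.41, adjusted p = 0.0160 with DMSO lost its call with DESeq2. LY6E, a lipid-anchored surface protein that alters the entry of several viruses, stood at 48.6, 61.2 and 54.3 CPM with dabrafenib and at 53.4, 52.4 and 55.9 CPM with DMSO in A375-BIR. It stood at 14.4, 8.93 and 16.9 CPM with dabrafenib and at 78.5 CPM with DMSO in A375. Its A375 dabrafenib libraries lay below all others, and its A375 DMSO library above all others. The difference between the lines was 2.08 ± 0.36, adjusted p = 1.02e-05 with dabrafenib and -0.55 ± 0.25, adjusted p = 0.0665 with DMSO, of which the second was not called. PLSCR1, a phospholipid scramblase, was not called in either comparison.

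**Figure D4:**
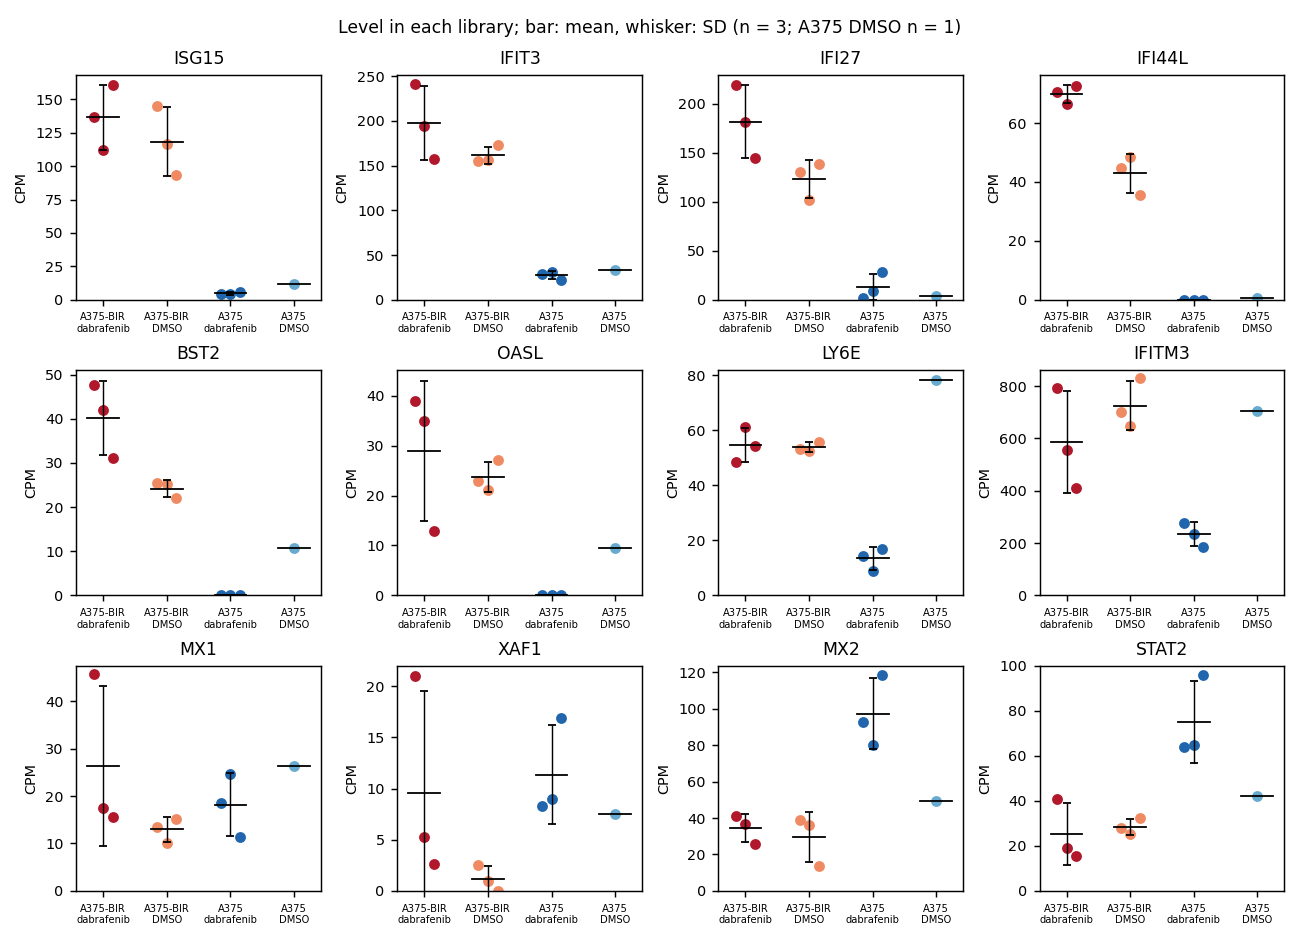
Level in CPM (vertical axis, from 0) of 12 of the genes in each library, by group from left to right A375-BIR dabrafenib, A375-BIR DMSO, A375 dabrafenib and A375 DMSO, with the mean as a bar and the SD as a whisker (n = 3, A375 DMSO n = 1). BST2, OASL and IFI44L lie at 0 in A375 with dabrafenib, MX2 and STAT2 are highest there, and XAF1 and MX1 have one high A375-BIR dabrafenib library each, replicate 1.

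IFI27 (chromosome 14, 94104836 to 94116698), a small membrane protein of mitochondria and the nuclear envelope, stood at 219, 182 and 145 CPM with dabrafenib and at 130.5, 102 and 139 CPM with DMSO in A375-BIR. It stood at 2.06, 8.93 and 28.2 CPM with dabrafenib and at 3.77 CPM with DMSO in A375. The A375 dabrafenib libraries were spread widely, yet the highest was far below the lowest of A375-BIR, and the differences were 4.32 ± 0.37, adjusted p = 5.96e-12 with dabrafenib and 4.97 ± 0.48, adjusted p = 9.83e-11 with DMSO. IFI6 (chromosome 1, 27666061 to 27672218), a protein that opposes cell death at mitochondria and blocks flavivirus replication at the endoplasmic reticulum, stood at 659.7, 579 and 311 CPM with dabrafenib and at 588, 440.5 and 697 CPM with DMSO in A375-BIR, and at 70.1, 82.6 and 33.8 CPM with dabrafenib and at 127 CPM with DMSO in A375. Its ranges were also apart, with differences of 2.95 ± 0.28, adjusted p = 3.41e-09 with dabrafenib and 2.17 ± 0.35, adjusted p = 1.11e-05 with DMSO. The adjacent genes IFI44L (chromosome 1, 78619922 to 78646145) and IFI44 (chromosome 1, 78649796 to 78664078) encode related cytoplasmic proteins. IFI44L stood at 70.4, 66.5 and 72.5 CPM with dabrafenib and at 44.9, 48.4 and 35.5 CPM with DMSO in A375-BIR, and in A375 it had no count with dabrafenib and 1 count with DMSO. Under dabrafenib it was at least 25.8-fold higher in A375-BIR (adjusted p = 8.35e-11), and with DMSO the ratio of counts was 70.3 (95% counting interval 12.4 to 2800.0). IFI44 stood at 35.2, 43.7 and 25.9 CPM with dabrafenib and at 42.4, 27.2 and 30.5 CPM with DMSO in A375-BIR, and at 2.06, 6.70 and 11.3 CPM with dabrafenib and at 3.77 CPM with DMSO in A375. Its differences were 2.68 ± 0.51, adjusted p = 4.55e-05 with dabrafenib and 3.12 ± 0.51, adjusted p = 4.25e-06 with DMSO.

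The remaining genes were less uniform. SP100, a nuclear body protein, was higher in A375-BIR in both comparisons (0.82 with dabrafenib and 1.24 with DMSO), and the dabrafenib call ended without dabrafenib replicate 1 of either line. OAS2 was also higher in both (ratio of counts 7.19 (95% counting interval 2.28 to 36.4) with dabrafenib, 1.94 with DMSO), and IFIT5 with DMSO only at 1.15 ± 0.43, adjusted p = 0.0228, a call lost with DESeq2 and without A375-BIR DMSO replicate 1. With dabrafenib IFIT5 differed by 0.73 ± 0.35, adjusted p = 0.0926. The partners PARP9 and DTX3L, an ADP-ribosyltransferase and a ubiquitin ligase that act together in DNA repair and interferon signalling, were lower in A375-BIR with DMSO (-1.02 ± 0.35, adjusted p = 0.0158 for PARP9 and -0.69 ± 0.24, adjusted p = 0.0150 for DTX3L) and were not called with dabrafenib. So were IFI35 (-1.24 ± 0.41, adjusted p = 0.0110) and XAF1 (-2.26 ± 0.93, adjusted p = 0.0396), and all 4 of these calls were lost with DESeq2. The calls for PARP9, IFI35 and XAF1 were also lost with the replicate number as a block. The DTX3L call also ended without A375-BIR DMSO replicate 1 or 2, and the XAF1 call without replicate 2 or 3. With MX1 these make up the 5 genes lower in A375-BIR with DMSO. TRIM22, a ubiquitin ligase, had too few counts to be tested, with 22 in A375-BIR with dabrafenib, 14 in A375-BIR with DMSO and none in the 4 A375 libraries, and was at least 4.05-fold higher in A375-BIR with dabrafenib. OAS1 had 23 counts in A375-BIR with dabrafenib, 30 in A375-BIR with DMSO, 5 in A375 with dabrafenib and 10 in A375 with DMSO. EPSTI1 had 1 count in each A375-BIR group and none in A375.

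Several of the genes are neighbours on their chromosomes. The IFIT cluster on chromosome 10 spans 137 kb, and 3 of its 4 genes were called higher in A375-BIR under dabrafenib (22.6% of all tested genes). On chromosome 4 HERC6 and HERC5, on chromosome 1 IFI44L and IFI44, and on chromosome 7 SAMD9 and SAMD9L were all called higher. On chromosome 21 MX2 was lower and MX1 was not called, and on chromosome 3 PARP14 alone of PARP9, DTX3L and PARP14 was higher. The difference of 0.50 ± 0.18, adjusted p = 0.0255 for PARP14 lost its call with DESeq2, under the filter at a mean count of 50 and without A375-BIR dabrafenib replicate 3 or A375 dabrafenib replicate 1 or 2. By promoter letters, 15 of the 21 genes with an ISRE match were higher in A375-BIR under dabrafenib, 4 were not called and 2 were not tested. Of the 12 matched genes without one, 4 were higher (IRF1, HERC6, SAMD9L and SP100), STAT2 was lower, 4 were not called and 3 were not tested. Of all tested genes, 22.6% were called higher and 20.2% lower. These are counts within the list, with no test of a difference between them. The limit that the filter sets for low genes of A375 holds for them as well.

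Within A375-BIR few of these genes were called in the response to dabrafenib, and the number changed when single libraries were left out. Of the 35, 2 were higher with dabrafenib than with DMSO and 0 lower by edgeR, where 2.46% of all tested genes were called, 1.36% higher and 1.1% lower. At an unadjusted p under 0.05, 12 of the 35 were higher and 0 lower (7.73% and 6.51% of all tested genes). DESeq2 called 0 in either direction, but gave no adjusted p for some of the 35, XAF1 among them. The number called was 8 without A375-BIR dabrafenib replicate 2, 5 without replicate 3, 0 without replicate 1 or any one of the A375-BIR DMSO replicates, and 1 without A375 dabrafenib replicate 2. The share of all tested genes called without each library is not given here. A change particular to these genes thus cannot be told from a general one. The median difference was 0.30, against 0.018 over all genes tested. Of the tested interferon response genes, 9 had all 3 dabrafenib libraries above all 3 DMSO libraries (9.07% of all tested genes). These were IRF1, IFIT5, MX1, BST2, PARP9, PARP14, IFI27, IFI44L and XAF1. For 0 of the 35 genes all 3 lay below (8.91% of all tested genes).

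PARP14 (chromosome 3, 122680618 to 122730840), an ADP-ribosyltransferase, was one of the 2 called. It stood at 252, 219 and 289.8 CPM with dabrafenib and at 164, 171 and 156 CPM with DMSO in A375-BIR. The groups do not overlap, and the log2 difference was 0.62 ± 0.17, adjusted p = 0.0327. The call ended with DESeq2 and without any 1 of 6 libraries, namely each A375-BIR DMSO replicate, A375-BIR dabrafenib replicate 1 or 3, or A375 dabrafenib replicate 2, while its value stayed between 0.54 and 0.70 when libraries were left out. In A375 it stood at 151, 185 and 214 CPM with dabrafenib and 141 CPM with DMSO. XAF1 (chromosome 17, 6755447 to 6775647), which binds the caspase inhibitor XIAP and favours cell death, was the other. It had 22, 3 and 1 counts with dabrafenib and 3, 1 and 0 with DMSO in A375-BIR. Most of its reads thus lie in dabrafenib replicate 1, without which the gene did not pass the filter. Nor did XAF1 pass it without the A375 DMSO group in the fit. The difference of 2.94 ± 0.77, adjusted p = 0.0272 was not called without any 1 of the DMSO replicates.

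The same library, dabrafenib replicate 1, stood apart for further genes. MX1 stood at 45.7, 17.5 and 15.5 CPM with dabrafenib and at 13.6, 10.1 and 15.2 CPM with DMSO in A375-BIR. Its difference of 1.25 ± 0.36, adjusted p = 0.0543 fell short of the call, and without that library the value was 0.39. PARP9 stood at 60.9, 24.5 and 25.9 CPM with dabrafenib and at 23.7, 21.2 and 18.6 CPM with DMSO in A375-BIR, a difference of 0.94 ± 0.31, adjusted p = 0.0986 that was 0.21 without it. IFI35 stood at 35.2, 12.2 and 15.5 CPM with dabrafenib and at 12.7, 13.1 and 11.8 CPM with DMSO in A375-BIR, a difference of 0.91 ± 0.38, adjusted p = 0.226 that was 0.10 without it. For genes spread more evenly, BST2 stood at 47.6, 42.0 and 31.1 CPM with dabrafenib and at 25.4, 25.2 and 22 CPM with DMSO in A375-BIR and IFI44L at 70.4, 66.5 and 72.5 CPM with dabrafenib and at 44.9, 48.4 and 35.5 CPM with DMSO in A375-BIR. Neither was called (0.77 ± 0.27, adjusted p = 0.134 for BST2 and 0.67 ± 0.22, adjusted p = 0.107 for IFI44L). Among other genes far apart between the lines, none of IFI27 (0.60 ± 0.20, adjusted p = 0.104), IFIT1 (0.52 ± 0.23, adjusted p = 0.286), ISG15 (0.17 ± 0.19, adjusted p = 0.760), HERC5 (0.10 ± 0.23, adjusted p = 0.910) and IFITM2 (-0.25 ± 0.18, adjusted p = 0.593) was called with the drug in A375-BIR, and of these IFI27 alone had its dabrafenib and DMSO libraries apart.

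**Figure D5:**
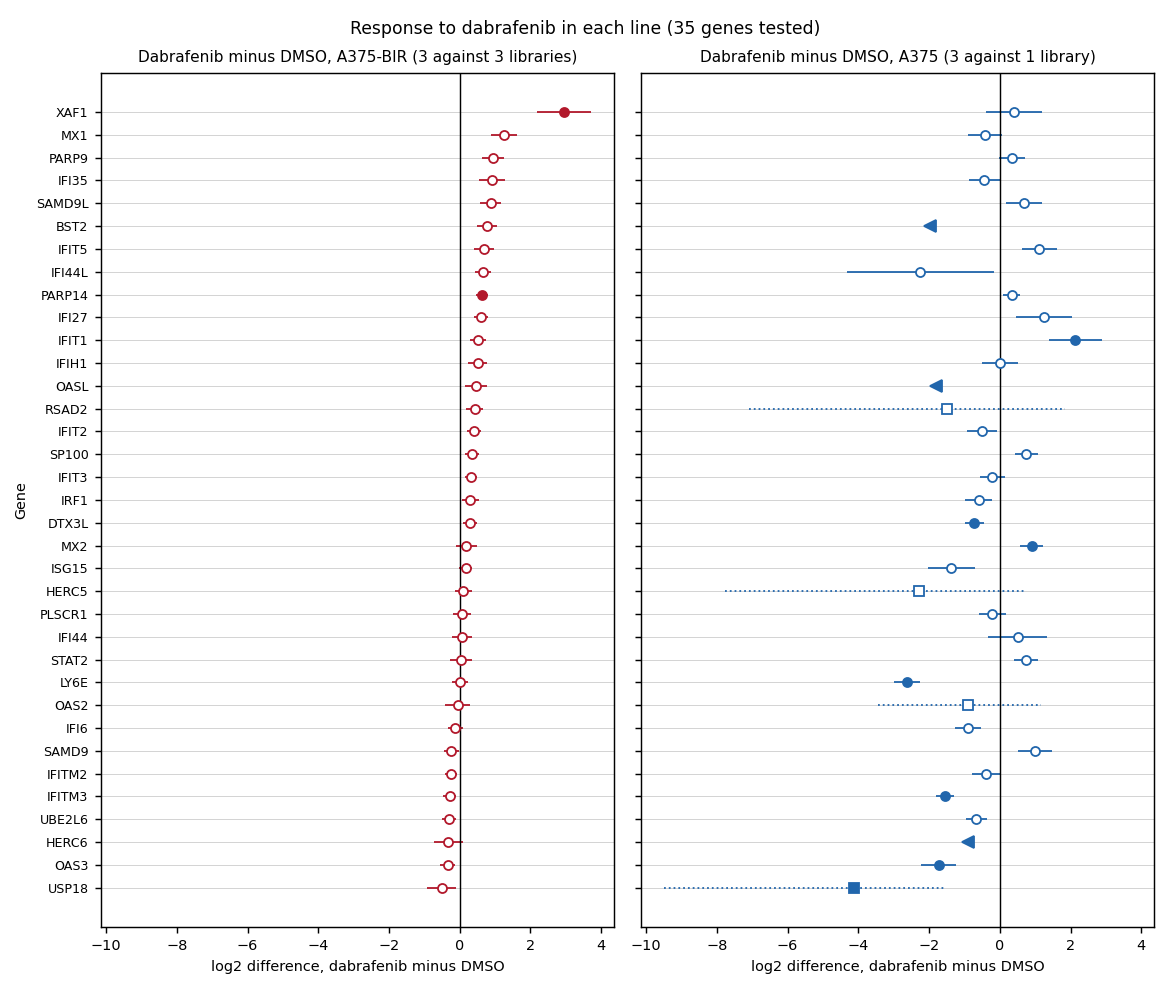
Dabrafenib minus DMSO on the log2 scale for the 35 tested genes (rows), in A375-BIR on the left (3 against 3 libraries) and in A375 on the right (3 against 1). Circles are fitted values with standard errors, triangles limits where the dabrafenib group had no count, and squares ratios of counts with 95% intervals (dotted) where it had 1 to 3. IFI44L on the right, with no count with dabrafenib and 1 with DMSO, is drawn as a circle all the same. Filled symbols are called genes, which are XAF1 and PARP14 on the left and 10 genes on the right.

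In A375, where the comparison rests on the lone DMSO library of another run, 2 of the 35 genes were higher with dabrafenib and 8 lower (of all tested genes 38.6% were called, 17.9% higher and 20.7% lower). The median was -0.44, against 0 over all genes tested. Genes for membrane proteins were among those that were lower. LY6E stood at 14.4, 8.93 and 16.9 CPM with dabrafenib and 78.5 CPM with DMSO (-2.62 ± 0.37, adjusted p = 6.91e-07). IFITM3 differed by -1.56 ± 0.26, adjusted p = 1.31e-05, and BST2 was at least 3.95-fold lower with dabrafenib (adjusted p = 0.000957). The others were USP18, with a ratio of counts of 0.0574 (95% counting interval 0.00140 to 0.350), OASL, at least 3.49-fold lower with dabrafenib, OAS3 (-1.73 ± 0.50, adjusted p = 0.00638), HERC6, at least 1.86-fold lower with dabrafenib, and DTX3L (-0.72 ± 0.27, adjusted p = 0.0306). IFIT1 (2.14 ± 0.74, adjusted p = 0.0215) and MX2 (0.91 ± 0.32, adjusted p = 0.0240) were higher. The calls for HERC6, IFIT1, MX2 and DTX3L were each lost without A375 dabrafenib replicate 1. Some were also lost without replicate 2 (HERC6) or 3 (MX2, DTX3L) or with DESeq2 (HERC6, MX2, DTX3L). The DTX3L call also ended under the filter at a mean count of 50 and with the replicate number as a block.

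Tested directly, the response to dabrafenib differed between the lines for 7 of the 35 genes, all with a higher value in A375-BIR (of all tested genes 22.6% were called, 12.7% higher and 9.87% lower). They were LY6E (2.62 ± 0.44, adjusted p = 4.55e-05), IFITM3 (1.27 ± 0.32, adjusted p = 0.00456), BST2, OASL, USP18, DTX3L and MX1. The calls for USP18, DTX3L and MX1 were lost with DESeq2 and without A375-BIR dabrafenib replicate 1 or A375 dabrafenib replicate 1, the second of which leaves 4 of the 7. USP18, DTX3L and MX1 also lost their calls with the replicate number as a block. Those for DTX3L and MX1 were also lost without A375-BIR DMSO replicate 1 or 2, and that for MX1 without A375-BIR DMSO replicate 3 or A375 dabrafenib replicate 2 or 3. For LY6E and IFITM3 the A375-BIR groups overlap (0.0056 for LY6E and -0.28 for IFITM3 in A375-BIR), so that the difference lies mainly in the A375 values. This comparison shares the A375 DMSO library and its run with the response of A375 and with the lines in DMSO, so these results are not separate evidence.

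The interferon genes themselves were at or near 0 counts in most libraries. Of 21 interferon genes, none was tested: all 13 IFNA genes, IFNK, IFNW1, IFNG and IFNL3 had no count in any of the 10 libraries, and IFNB1 had 2 counts, both in A375-BIR with dabrafenib. IFNE had 7 counts over the 10 libraries, all in A375-BIR, and IFNL2 had 3. IFNL1, a type III interferon, had 15, 8 and 0 counts in A375-BIR with dabrafenib and 13, 9 and 3 with DMSO, against 1, 1 and 0 in A375 with dabrafenib and 10 with DMSO. At this depth a low level of these transcripts was not detectable. Of 7 tested genes for interferon receptors and their kinases, 1 was called in A375-BIR against A375 under dabrafenib (42.7% of all tested genes), the receptor gene IFNAR1, which was higher (1.39 ± 0.43, adjusted p = 0.00837). IFNAR1 stood at 31.4, 29.7 and 20.7 CPM with dabrafenib and at 31.4, 23.2 and 28.8 CPM with DMSO in A375-BIR, and at 8.25, 15.6 and 5.64 CPM with dabrafenib and at 43.3 CPM with DMSO in A375, and its A375 dabrafenib libraries lay below all others. With DMSO 1 of the 7 was higher, the kinase JAK2 (2.12 ± 0.39, adjusted p = 2.54e-05), and 1 was lower, IFNAR2 (-0.83 ± 0.30, adjusted p = 0.0199).

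Sensors upstream of interferon were also called in both directions. Of 11 tested genes of nucleic acid sensing, 4 were higher and 1 lower in A375-BIR under dabrafenib, where 42.7% of all tested genes were called in either direction. With DMSO 6 were higher and 1 lower, where 51.8% of all tested genes were called. RIGI, the RNA sensor listed as DDX58, stood at 76.2, 50.7 and 56.9 CPM with dabrafenib and at 43.2, 53.4 and 45.7 CPM with DMSO in A375-BIR, and at 4.12, 2.23 and 0 CPM with dabrafenib and at 6.28 CPM with DMSO in A375. It resembles IFIH1 in direction, with a ratio of counts of 24.1 (95% counting interval 8.08 to 119) under dabrafenib and a difference of 2.89 ± 0.42, adjusted p = 6.25e-07 with DMSO. EIF2AK2, the RNA-activated kinase PKR, stood at 295, 306 and 311 CPM with dabrafenib and at 296, 296 and 281 CPM with DMSO in A375-BIR, and at 84.6, 82.6 and 107 CPM with dabrafenib and at 87.3 CPM with DMSO in A375. Its replicates were close together, and it was higher in A375-BIR by 1.78 ± 0.19, adjusted p = 1.11e-09 with dabrafenib and 1.74 ± 0.24, adjusted p = 1.50e-07 with DMSO. STING1 (listed as TMEM173), the adaptor of DNA sensing, was higher by 1.56 with dabrafenib and 1.94 with DMSO, and the ubiquitin ligase TRIM25 by 1.11 with dabrafenib and 0.71 with DMSO. The DNA sensor AIM2 was lower in A375-BIR (-2.10 with dabrafenib and -3.37 with DMSO). The differences given for STING1, TRIM25 and AIM2 all passed the test.

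Genes that lean to interferon gamma were called in both directions. Of 10 tested, 3 were higher and 2 lower in A375-BIR under dabrafenib (22.6% and 20.2% of all tested genes), and 3 were higher and 4 lower with DMSO (25.1% and 26.7% of all tested genes), with medians of -0.042 under dabrafenib and -0.53 with DMSO. GBP1, a guanylate-binding protein, was higher by 2.19 with dabrafenib and 1.75 with DMSO, and the chemokine gene CXCL11 had a ratio of counts of 17.7 (95% counting interval 2.95 to 720.3) under dabrafenib. ICAM1, an adhesion molecule, was higher under dabrafenib by 1.46. CIITA, the regulator of MHC class II genes, stood at 4.76, 3.50 and 5.18 CPM with dabrafenib and at 1.69, 0 and 1.69 CPM with DMSO in A375-BIR, and at 37.1, 55.8 and 33.8 CPM with dabrafenib and at 56.5 CPM with DMSO in A375. It was thus far lower in A375-BIR (-3.25 ± 0.46, adjusted p = 3.09e-07 with dabrafenib). WARS1, a tRNA synthetase listed as WARS, was lower in A375-BIR (-1.62 with dabrafenib and -1.90 with DMSO). Of 7 tested negative regulators of interferon signalling, whose called share was about that of all genes, 2 were higher under dabrafenib, the phosphatase gene PTPN2 (1.80 ± 0.34, adjusted p = 4.65e-05) and SAMHD1 (1.23 ± 0.31, adjusted p = 0.00119), and 1 was lower, IRF2 (-0.82 ± 0.31, adjusted p = 0.0327).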

How the data were processed

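RNA of the A375 and A375-BIR melanoma lines was made into 3′ tag libraries with the QuantSeq FWD kit from 250 ng of total RNA and sequenced as single-end reads of 100 bases, per the labels' protocols. The authors deposited 1 file of raw read counts per gene for each of the 12 libraries, with no normalization. The build is hg38, per the submitters' processing notes. Which aligner, counting program, annotation and strand setting were used is not given in the sources used here. Lines of reads given to no gene were left out of all totals. They and the reads with more than 1 alignment, kept out of the gene counts, leave genes with near copies uncertain. Of the files, 10 list human genes and 2, both labelled A375 DMSO, list mouse genes and were left out, so that A375 DMSO, planned with 3 libraries, entered with 1.

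Genes were kept by filterByExpr (minimum count 10), and library totals were scaled by TMM. The fit used edgeR 4.0.16 in R 4.3.3 (glmQLFit, robust, a coefficient for each group, 6 residual degrees of freedom, common biological coefficient of variation 0.136). P-values were adjusted by Benjamini-Hochberg over 10236 genes. Standard errors are the size of the difference divided by the square root of F. The procedure was tested on simulated data. Symbols and positions came from GENCODE 29 and promoters from RefSeq (GRCh38.p14). Of the pathway lists, 2 genes are not reported here and are left out of the printed counts. The interferon response genes, the lists of pathway genes and markers and the tests were chosen with earlier results of these data known. The rule for values per library took members called between the lines or within A375-BIR and 4 transcription factors. This gave 35, over the limit of 30, so that the 4 of each role with the smallest p in comparisons within a run were taken, 26 in all. Other genes given with values were added after their values were seen. Alternatives were DESeq2 1.42.0 (its size factors, its test), no filter, a mean count of at least 50, the replicate number as a block, a fit without A375 DMSO, and each library left out in turn.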

Additional observations from a re-analysis of the deposited data

Results flagged for a closer look

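The response to dabrafenib, tested as a difference between the lines, differed for 7 of the interferon response genes and 6 genes of the pathway lists. The test was edgeR's quasi-likelihood test with adjustment over all genes, by which 22.6% of all tested genes were called. The 7 of 35 are no larger a share than this. All 7 were higher in A375-BIR, where 12.7% of all tested genes were called higher and 9.87% lower. For LY6E (adjusted p = 4.55e-05), BST2 (adjusted p = 0.000555), OASL (adjusted p = 0.00398) and IFITM3 (adjusted p = 0.00456) the call held in every alternative that gave a value. For USP18 (adjusted p = 0.0238), DTX3L (adjusted p = 0.0280) and MX1 (adjusted p = 0.0380) it did not. In all 7 the value was higher in A375-BIR, and the direction held in each alternative run. Of the pathway genes, IFNAR1 (2.03 ± 0.53, adjusted p = 0.00511), ICAM1 (1.66 ± 0.43, adjusted p = 0.00530) and GBP2 (1.20 ± 0.35, adjusted p = 0.0114) had the higher response in A375-BIR. TICAM1 (-2.66 ± 0.65, adjusted p = 0.00315), JAK2 (-1.97 ± 0.54, adjusted p = 0.00772) and MYD88 (adjusted p = 0.0415) had the lower one, with a single MYD88 count in the A375 DMSO library. All 13 rest on that library, which is of another run, so that the line's response and the run cannot be told apart.

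A375 DMSO replicates 2 and 3 held 224221 and 652439 counts on mouse gene identifiers, although their labels state human. They belong to no comparison here.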

How the results depend on the processing

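No interferon response gene changed its direction while called, in any alternative. In the comparison of the lines under dabrafenib 23 of the 27 calls held in every alternative that gave a value, with DMSO 15 of 25, in the response of A375 6 of 10, in the difference between responses 4 of 7, and in the response of A375-BIR 0 of 2. With DESeq2's test the number of genes called was 0 in the response of A375-BIR (2 by edgeR), 15 between the lines with DMSO (25 by edgeR) and 4 in the difference between responses (7 by edgeR). In the response of A375-BIR it gave no adjusted p for some genes, XAF1 among them. A mean count of at least 50 left 11 of the 35 genes to test. Of these, 1 was called in the A375-BIR response, 2 in the A375 response (10 before), 8 in DMSO between the lines, 8 there under dabrafenib (27 before) and 2 in the difference between responses. In the A375 response the DTX3L call was lost, and SP100, not called before, was called higher with dabrafenib. Without the A375 DMSO group in the fit, 1 was called in the response of A375-BIR. The filter then kept 8736 genes, and XAF1 was not among them. With single libraries left out in turn, the numbers called ran between 0 and 8 in the A375-BIR response, 7 and 14 in the A375 response, 21 and 26 between the lines with DMSO, 23 and 28 with dabrafenib, and 4 and 10 in the difference between responses. In the response of A375-BIR, 8 were called without dabrafenib replicate 2, 5 without replicate 3 and 0 without replicate 1. Shares of all tested genes called in these alternatives are not given here. The cause of these changes was not tested, except that the stricter filter leaves fewer genes.

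The replicate numbers did not meet the rule for pairs, a correlation over 0.1 of the deviations in every same-numbered pair: it was -0.33 to 0.13 between the A375-BIR groups and 0.067 to 0.27, positive in all 3 pairs, between the dabrafenib groups, where A375-BIR replicate 2 correlated more with A375 replicate 1 (0.17) than with its own number. With the replicate number as a block, the numbers called were 2 in the A375-BIR response, 9 in the A375 response, 21 and 27 between the lines with DMSO and with dabrafenib, and 4 in the difference between responses. The calls lost under the block were MX1, PARP9, IFI35 and XAF1 between the lines with DMSO, where the number lower in A375-BIR was 1 against 5 without the block, DTX3L in the A375 response, and USP18, DTX3L and MX1 in the difference between responses. Depth limits the low genes: 0 counts allow up to 1.49 CPM over A375-BIR with dabrafenib and 2.70 CPM over A375 with dabrafenib.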

Other observations

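Adaptors and antigen presentation genes of the pathway lists, which are not among the interferon response genes above, were called in both directions. TICAM1, the adaptor of the RNA-sensing receptor TLR3, stood at 28.6, 28.0 and 18.1 CPM with dabrafenib and at 25.4, 18.1 and 16.9 CPM with DMSO in A375-BIR, and at 28.9, 26.8 and 45.1 CPM with dabrafenib and at 3.77 CPM with DMSO in A375. The A375 DMSO library alone was low, and the gene was higher in A375-BIR with DMSO (2.41 ± 0.54, adjusted p = 0.000285) and not called under dabrafenib (-0.24 ± 0.35, adjusted p = 0.598). MYD88, the adaptor of most other receptors of that family, was also higher in A375-BIR with DMSO, at a ratio of counts of 15.6 (95% counting interval 2.57 to 637) and adjusted p = 0.00143, and was not called under dabrafenib, with a difference of 0.52 ± 0.47, adjusted p = 0.385 under dabrafenib. PSMB9, a subunit of the immunoproteasome, was lower in A375-BIR with DMSO (-1.56 ± 0.30, adjusted p = 3.62e-05), and the peptide transporter gene TAP2 was higher (1.57 ± 0.34, adjusted p = 0.000242). Under dabrafenib neither was called (-0.55 for PSMB9 and 0.32 for TAP2).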
